A study of Mus musculus with 6 samples.

Results

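The genes described here are 10 markers of fat progenitors, the stromal cells of adipose tissue from which new adipocytes form: Pdgfra, Pdgfrb, Dpp4, Pi16, Cd34, Ly6a, Fap, Pamr1, Smoc2 and Cd248. They were found in the count table by gene symbol, and all 10 were among the 54532 genes listed and among the 16003 genes tested. Transcripts were measured by RNA-seq in eWAT, the white fat pad that lies along the epididymis, of 3 cachectic and 3 control mice. All 6 were male C57BL/6 mice, obtained at 6 to 10 weeks of age, and the pads were harvested on day 21. Cachectic mice had been inoculated subcutaneously with 5000000 cells of LLC, a mouse Lewis lung carcinoma line, and cachexia was defined as a loss of more than 20% of body weight. The labels describe the other group only as control, and the sources used here do not say what those mice received in place of LLC cells. No genetic change, and no agent other than the tumor cells, is named for either group. RNA was taken from the fat itself and not from sorted cells, so each library mixes adipocytes, progenitors, vessels and immune cells, and fewer cells of a type cannot be told apart from less RNA per cell.

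Progenitors of white fat lie in the connective tissue and along the vessels of the pad, and are recognized by PDGF receptors, tyrosine kinases that drive growth and matrix production in mesenchymal cells. Within them, a reserve population in the fibrous interstitium is marked by Dpp4 and Pi16, and gives rise to committed preadipocytes that lie closer to becoming adipocytes. Cd34, Ly6a (Sca-1), Pdgfra and the absence of blood and endothelial markers are the usual basis for sorting these cells, but Cd34 and Ly6a are also made by endothelial cells and Pdgfrb by pericytes.

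The 6 libraries held between 14928766 and 18855546 counts. The first principal component of log2 CPM (counts per 1000000 of the library, on library sizes normalized by TMM) carried 57.6% of the variance and separated the groups. The second, with 16.3%, set control replicate 1 (47.2) apart from control replicates 2 (-28.8) and 3 (-23.3). Fat markers were abundant in every library: the 12 adipocyte markers listed summed to between 22506 and 43084 CPM. None of 8 markers of the epididymal epithelium, the tissue beside the pad, reached the filter on low counts. That filter asks for counts in as many libraries as a group holds, so epithelium in 1 pad alone would not reach it. Together the 8 summed to 4.11 CPM in control replicate 1 and to 0.55 to 1.52 CPM in the other mice. Control replicate 1 also had counts in 24552 genes, against 22607 to 23038 in the other mice. Whether its pad held other tissue was not tested.

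RefSeq promoter windows (mouse build GRCm38.p6, 250 bases before and 50 after a transcript start) were available here for 4 of the 10 markers. The windows of Pi16 and Dpp4 are shown because both genes mark the interstitial progenitors and only Pi16 passed the test described below. Capitals mark every match, on either strand, to the letters of the GC box (GGGCGG), of the NF-Y motif (CCAAT), of the TBP motif (TATAAA), of AP-1 (TGANTCA), of the E-box (CANNTG), of TEAD (GGAATG), of STAT (TTCNNNGAA) or of C/EBP (TTNNGNAA).
Pi16, plus strand, chr17:29318632-29318931: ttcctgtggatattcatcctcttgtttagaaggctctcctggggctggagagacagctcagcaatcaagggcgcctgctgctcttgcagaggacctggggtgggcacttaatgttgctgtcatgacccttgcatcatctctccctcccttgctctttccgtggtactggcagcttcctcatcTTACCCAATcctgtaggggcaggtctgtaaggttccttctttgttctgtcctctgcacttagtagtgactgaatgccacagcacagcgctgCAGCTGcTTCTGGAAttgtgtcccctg
Dpp4, minus strand, chr2:62412182-62412481: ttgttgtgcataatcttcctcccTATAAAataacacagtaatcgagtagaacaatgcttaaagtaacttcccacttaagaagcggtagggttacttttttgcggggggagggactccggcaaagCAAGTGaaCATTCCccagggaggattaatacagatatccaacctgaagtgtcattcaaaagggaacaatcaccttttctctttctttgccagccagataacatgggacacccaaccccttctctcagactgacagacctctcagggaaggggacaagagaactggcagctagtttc
In the Pi16 window a CCAAT match began 64 bases before the start and overlapped a C/EBP match that began 68 bases before it, and an E-box and another C/EBP match began 23 and 30 bases after it. Among all 32851 windows of this length, 37.4% held CCAAT and 40.7% held the C/EBP letters. The Dpp4 window held neither. It held TATAAA, 227 bases before the start (13.6% of all windows), and a TEAD match (14.7%) 118 bases before the start, beside an E-box. E-box letters were in 72.3% of all windows. The windows of Pdgfra and Cd34, which did not pass that test either, are not shown. That of Pdgfra held 3 C/EBP matches and 2 E-boxes, and that of Cd34 held no match to any of these letters. C/EBP letters were thus also in the window of a marker that did not pass. A match is a description of the letters in this window only, and no binding was measured.

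Of the 10 markers, 2 (Ly6a and Pamr1) were higher and 2 (Pi16 and Cd248) were lower in cachectic eWAT by edgeR's quasi-likelihood test, at an adjusted p under 0.05 (Benjamini-Hochberg over all genes tested). The other 6 did not pass the test. In the background, 9% of all genes tested were called higher, 8.63% lower and 17.6% in either direction. The median log2 fold change was -0.39 over the 10 markers and -0.0031 over all genes tested, with 3 markers above 0 and 7 below it. The groups did not overlap for 6 of the 10 markers, against 40.5% of all genes tested. Summed over the 10 genes, the level was 907 ± 71.0 CPM (SD, n = 3) in control and 840 ± 80.6 CPM in cachectic mice, although 2 of the markers rose and 2 fell. Cachexia replicate 1 was the highest of the cachectic mice for 6 markers, and cachexia replicate 2 was the lowest for 6.

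**Figure D1:**
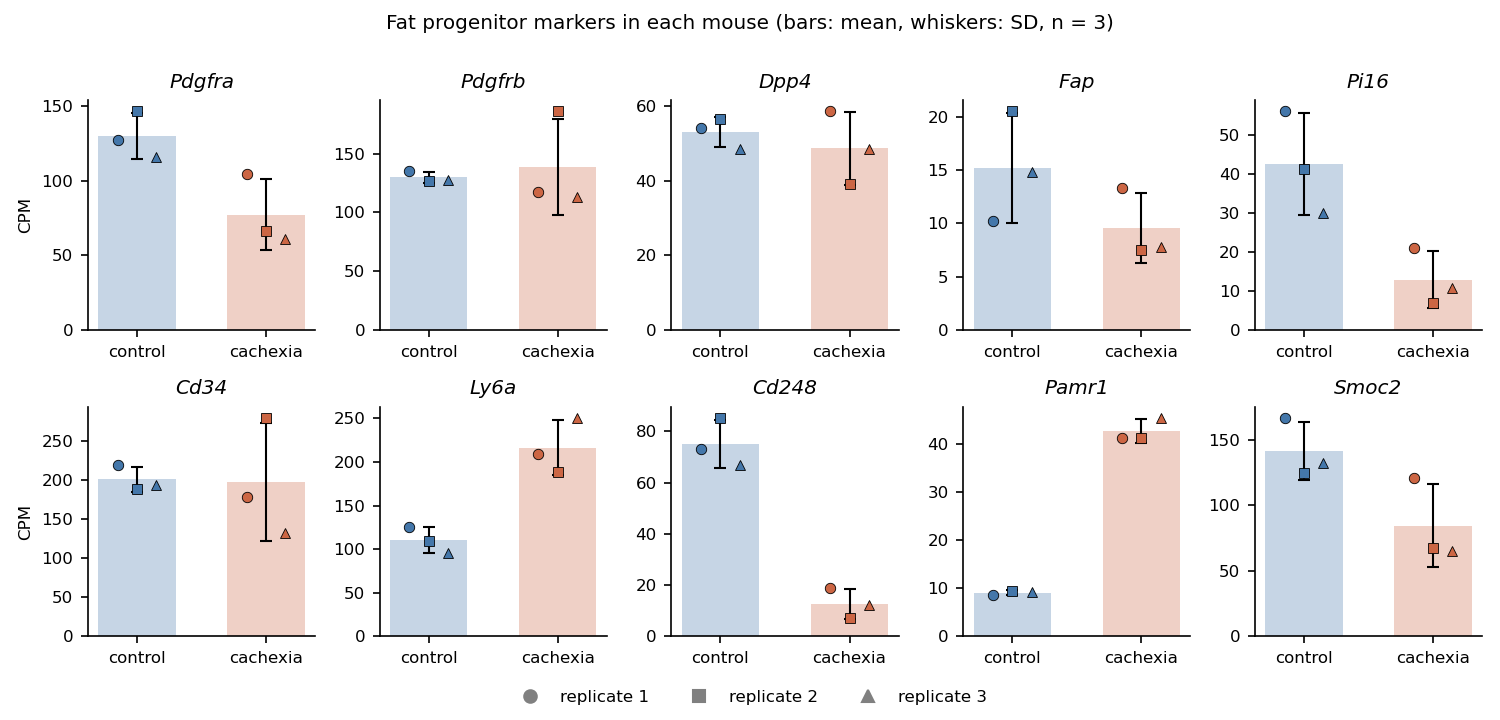
CPM (y axis, linear from 0) of each marker in each mouse, with symbols for the replicate, bars for the group mean and whiskers for the SD of 3 mice. Groups lie apart for Pdgfra, Pi16, Ly6a, Cd248, Pamr1 and Smoc2 and overlap for Pdgfrb, Dpp4, Fap and Cd34.

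Neither PDGF receptor passed the test. Pdgfra (ENSMUSG00000029231, chr5:75152292-75198215, plus strand) encodes the receptor alpha chain and is the broadest marker of fat progenitors and fibroblasts. Its level was 128, 146 and 116 CPM in control mice 1 to 3 and 105, 66.6 and 60.7 CPM in cachectic mice 1 to 3. All 3 cachectic mice were below all 3 controls, with cachexia replicate 1 close to the controls. The log2 fold change was -0.75 (SE 0.22), and the adjusted p from edgeR was 0.0518, just above the threshold. Without cachexia replicate 1 it was -1.03 with an adjusted p of 0.0150. Over the 16 alternative settings the adjusted p ran from 0.0125 to 0.149 and was under 0.05 in 5 of them.

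Pdgfrb (ENSMUSG00000024620, chr18:61045150-61085061, plus strand) encodes the beta chain, which pericytes and smooth muscle also carry. It stood at 135, 127 and 127 CPM in control mice and 117, 186 and 114 CPM in cachectic mice. Cachexia replicate 2 was above every other mouse and the other cachectic mice were below every control, so the groups overlapped. The log2 fold change of 0.10 (SE 0.20, edgeR adjusted p = 0.779) became -0.17 without cachexia replicate 2. Within each mouse, the log2 ratio of Pdgfrb to Pdgfra was higher by 0.84 in cachectic mice, without overlap (two-sided exact permutation test, p = 0.1, the smallest that 3 against 3 allows). The ratio was 0.09, -0.20 and 0.13 in control and 0.16, 1.48 and 0.90 in cachectic mice. Cachexia replicate 1 thus lay barely above the controls, and cachexia replicate 2 was the highest.

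Of the genes around these receptors, those for the ligands moved in both directions. Among 8 genes for PDGF ligands, their processing and their partners, 1 was higher and 2 were lower, with a median log2 fold change of -0.28. Pdgfa, which encodes a ligand of the alpha receptor, fell from 23.3, 17.1 and 18.1 CPM in control to 8.69, 9.83 and 9.90 CPM in cachectic mice (log2 fold change -1.04, SE 0.18, edgeR adjusted p = 0.00935). Pdgfc, another ligand of the alpha receptor, fell as well (-1.11, SE 0.26, adjusted p = 0.0270). Pdgfb, the ligand made by endothelial cells that recruits pericytes, was higher by 0.69 (adjusted p = 0.0333). Pdgfa was called without any 1 mouse. Pdgfc was not called without control replicate 2 or 3 or cachexia replicate 2 (adjusted p from 0.0727 to 0.0875), and Pdgfb was not called without control replicate 1, 2 or 3 or cachexia replicate 1 (0.0572 to 0.123). Furin (log2 fold change 0.19), a protease that processes PDGF precursors, and Nrp1 (0.28), the most abundant gene of this list and also an endothelial gene, did not pass the test. When 1 mouse was left out, Furin ran from 0.10 (without cachexia replicate 2) to 0.29 (without cachexia replicate 3) and Nrp1 from 0.12 (without control replicate 1) to 0.46 (without cachexia replicate 3).

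Among 16 adaptors, enzymes and inhibitors acting below the receptors, 1 was higher, 1 was lower and 14 were not called (median log2 fold change -0.30). Without cachexia replicate 2, 2 were called lower, with Gab1 added (-0.88, edgeR adjusted p = 0.0233, against -0.58 with all mice). Pik3r1, the regulatory subunit of PI3-kinase, fell from 743, 636 and 835 CPM to 189, 220 and 136 CPM (log2 fold change -2.02, SE 0.22, edgeR adjusted p = 0.00250). It also serves the insulin receptor in adipocytes. Plcg1, the phospholipase C that docks on activated receptors, was higher (0.86, SE 0.14, adjusted p = 0.00872, and 0.0511 without control replicate 3), and the phosphatase gene Ptpn11 was not called (-0.51, SE 0.20, adjusted p = 0.118, and -0.32 without cachexia replicate 3).

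Dpp4 and Fap encode related serine peptidases of the cell surface and are neighbors on chromosome 2, both on the minus strand with 88.7 kb between them. Dpp4 (ENSMUSG00000035000, chr2:62330073-62412231), or CD26, marks the interstitial progenitors. It was at 54.1, 56.4 and 48.4 CPM in control and 58.5, 38.9 and 48.5 CPM in cachectic mice. Cachexia replicate 1 was above every control and replicate 2 below, so the groups overlapped. The log2 fold change was -0.12 (SE 0.17, edgeR adjusted p = 0.641). Fap (ENSMUSG00000000392, chr2:62500943-62574075), fibroblast activation protein, was at 10.2, 20.5 and 14.8 CPM in control and 13.4, 7.55 and 7.80 CPM in cachectic mice. Control replicate 1 lay among the cachectic mice. Its log2 fold change of -0.66 (SE 0.32) had an adjusted p of 0.187, and rested on between 119 and 358 counts per mouse. It ran from -0.98 without cachexia replicate 1 to -0.39 without control replicate 2, and was not called without any 1 mouse. The log2 ratio of Fap to Dpp4 within a mouse, chosen after the values were seen, was -1.82 ± 0.47 (SD, n = 3) in control and -2.31 ± 0.24 in cachectic mice (exact permutation test, p = 0.3).

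Pi16 (ENSMUSG00000024011, chr17:29318877-29329413, plus strand), peptidase inhibitor 16, shares with Dpp4 the role of marking interstitial progenitors and, more widely, adventitial fibroblasts. The transcript was at 56.2, 41.5 and 30.2 CPM in control mice and 21, 6.88 and 10.9 CPM in cachectic mice. Every cachectic mouse was below every control mouse, while the controls among themselves spread from 30.2 to 56.2. Pi16 fell by 1.72 on the log2 scale (SE 0.40), with an edgeR adjusted p of 0.0259. This call needed nearly all mice: the adjusted p was between 0.0503 and 0.0761 when control replicate 1, 2 or 3 or cachexia replicate 2 or 3 was left out, and 0.0128 without cachexia replicate 1, with the fold change negative throughout. Against Dpp4 in the same mouse, a ratio chosen after the values were seen, the log2 ratio of Pi16 was 0.05, -0.44 and -0.67 in control and -1.46, -2.42 and -2.11 in cachectic mice. The groups lay apart by 1.64 (exact permutation test, p = 0.1).

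Of the surface antigens, Cd248 fell, Cd34 did not pass the test and Ly6a rose. Cd248 (ENSMUSG00000056481, chr19:5068078-5070637, plus strand) encodes endosialin, a transmembrane glycoprotein of fibroblasts, pericytes and fat progenitors that binds matrix proteins. It was at 72.9, 85.3 and 66.8 CPM in control and 18.8, 7.25 and 12.1 CPM in cachectic mice. The highest cachectic mouse was far below the lowest control mouse. The level was 5.89-fold lower (log2 fold change -2.56, SE 0.32, edgeR adjusted p = 0.00339), and Cd248 passed the threshold in all 16 alternative settings run. The log2 ratio of Cd248 to Pdgfrb in the same mouse, chosen after the values were seen, was -0.79 ± 0.19 in control and -3.46 ± 1.02 in cachectic mice (SD, n = 3), a difference of -2.66 without overlap (exact permutation test, p = 0.1).

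Cd34 (ENSMUSG00000016494, chr1:194938819-194961279, plus strand), a sialomucin of progenitors and endothelium, was at 219, 189 and 193 CPM in control and 179, 280 and 132 CPM in cachectic mice. The cachectic mice held both the highest and the lowest of the 6 values, with cachexia replicate 2 highest as for Pdgfrb. The log2 fold change was -0.03 (SE 0.26, edgeR adjusted p = 0.951), and its sign turned in several settings. An antisense gene, Gm16897, overlaps Cd34 and held 226 counts over all mice beside 20719 for Cd34. Whether the counting used strand is not given in the sources used here.

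Ly6a (ENSMUSG00000075602, chr15:74994877-74998031, minus strand), which encodes the small GPI-anchored antigen Sca-1, was at 126, 110 and 95.9 CPM in control and 209, 189 and 251 CPM in cachectic mice. All cachectic mice were above all controls. The level was 1.96-fold higher (log2 fold change 0.97, SE 0.17, edgeR adjusted p = 0.00935), and the adjusted p was 0.0562 without control replicate 3. The Ly6 genes are a cluster of close copies, so reads may be shared among them. Ly6c1, a close relative that is abundant in endothelium, was at 243, 173 and 185 CPM in control and 312, 334 and 414 CPM in cachectic mice (log2 fold change 0.82, SE 0.19, adjusted p = 0.0255), while Ly6e was not called (-0.11, adjusted p = 0.686, -0.24 without cachexia replicate 2 and -0.02 without cachexia replicate 3). Among 23 tested genes of the families to which the 10 markers belong, Ly6c1 was the only one called higher and Thbd, which shares a protein family with Cd248 and encodes thrombomodulin, the only one called lower (-1.0, SE 0.21, adjusted p = 0.0170), with a median of -0.11. Sparc, the most abundant of them and a relative of Smoc2, was not called (-0.86, SE 0.30, adjusted p = 0.0817). Leaving out one mouse at a time left 0 to 2 of them called in each direction. Ly6c1 was not called without control replicate 2 or 3 or cachexia replicate 3, nor Thbd without control replicate 2 or 3.

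Of the secreted markers, Pamr1 rose and Smoc2 did not pass the test. Pamr1 (ENSMUSG00000027188, chr2:102550012-102643041, plus strand), a secreted peptidase-domain protein associated with muscle regeneration, was at 8.63, 9.46 and 9.24 CPM in control and 41.3, 41.1 and 45.4 CPM in cachectic mice. The mice of each group lay close together, and the means were 9.11 ± 0.43 and 42.6 ± 2.43 CPM. The level was 4.68-fold higher (log2 fold change 2.23, SE 0.13, edgeR adjusted p = 0.000878) and passed the threshold in all 16 alternative settings. Smoc2 (ENSMUSG00000023886, chr17:14279506-14404790, plus strand), a matricellular calcium-binding protein, was at 167, 125 and 133 CPM in control and 121, 67.2 and 65.2 CPM in cachectic mice. The groups did not overlap, but cachexia replicate 1 was only slightly below control replicate 2. The log2 fold change of -0.74 (SE 0.26) had an edgeR adjusted p of 0.0838, and of 0.0159 (log2 fold change -1.10) without cachexia replicate 1. Without any other 1 mouse it was not called (-0.83 to -0.58, adjusted p from 0.131 to 0.198).

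**Figure D2:**
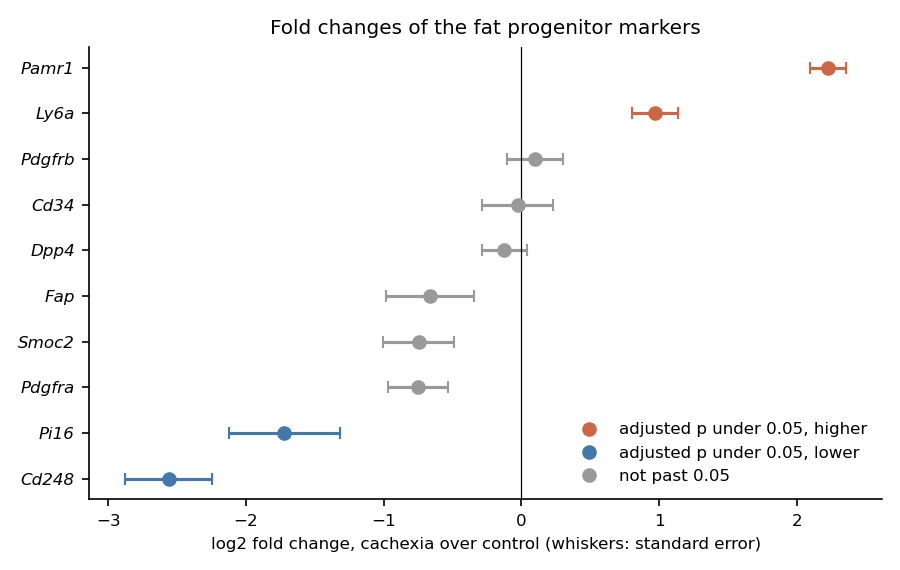
Log2 fold change of each marker, cachexia over control (x axis), with its standard error as whiskers and color for the call. Pamr1 (2.23) and Ly6a (0.97) lie above 0, Cd248 (-2.56) and Pi16 (-1.72) lie below it, and the other 6 did not pass the test.

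Per length of transcript, the order of the markers changed between the groups. On the deposited FPKM scale the mean levels in control eWAT were 90.5 for Ly6a, 28.9 for Cd248, 27.2 for Cd34, 23.4 for Pdgfrb, 20.1 for Smoc2, 12.8 for Pdgfra, 10.6 for Pi16, 8.28 for Dpp4, 2.65 for Fap and 1.49 for Pamr1. In cachectic eWAT the order of mean FPKM was Ly6a (175), Cd34 (26.4), Pdgfrb (24.8), Smoc2 (11.9), Pdgfra (7.54), Dpp4 (7.53), Pamr1 (6.89), Cd248 (4.86), Pi16 (3.17) and Fap (1.65). Cd248 thus went from the second place to the eighth, and Pamr1 from the last to the seventh. Neighbors such as Pdgfra and Dpp4 in cachectic mice differed by less than the spread between mice.

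Set against Pdgfra in the same mouse, the markers spread in both directions. Relative to Pdgfra, the log2 ratio was higher in cachectic mice by 2.95 for Pamr1, 1.75 for Ly6a, 0.84 for Pdgfrb and 0.64 for Dpp4, and it fell by 1.0 for Pi16 and by 1.82 for Cd248. For these 6 the groups did not overlap (exact permutation test, p = 0.1 each). Pdgfra itself was lower in every cachectic mouse than in every control, so a gene that did not change is on average higher against it. The share of all tested genes that lie apart against Pdgfra, or against the endothelial and matrix lists used below, was not computed. The groups overlapped for Smoc2 (difference -0.01, exact p = 1), Fap (0.15, exact p = 0.8) and Cd34 (0.69, exact p = 0.2). These are 9 of 29 ratios to a reference that were computed, beside 3 ratios between pairs of markers that were chosen after the values were seen. None can pass 0.05 with 3 mice a group, and the smallest p adjusted over the 29 was 0.121.

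Genes of the fibroblast matrix fell widely. Of 18 matrix and secreted genes of fibroblasts, 15 were lower, all 18 log2 fold changes were negative, and the median was -1.65. Col3a1, fibrillar collagen III, fell from 2651, 2118 and 2655 CPM to 398, 174 and 244 CPM (log2 fold change -3.18, SE 0.34, edgeR adjusted p = 0.00212), and Fbn1, the microfibril protein fibrillin 1, fell by 1.66 (SE 0.20, adjusted p = 0.00295). Dcn, the abundant proteoglycan decorin, was not called (-0.06, SE 0.21, adjusted p = 0.873), nor was Gsn (-0.66, adjusted p = 0.289). Gsn was at -1.15 (adjusted p = 0.0784) without cachexia replicate 1 and -0.35 without cachexia replicate 2, and Dcn ran from -0.18 without cachexia replicate 1 to 0.07 without cachexia replicate 3. When 1 mouse was left out, 10 to 14 of the 18 were called lower, and 10 to 13 of these were among the 15. Relative to the mean log2 level of this list, Pi16 overlapped between groups (difference -0.14, exact permutation test, p = 0.6). Cd248 was lower without overlap (-0.96, exact p = 0.1, and -0.63 with a pseudocount of 5), and the other 8 markers were higher by 0.85 to 3.81 without overlap. The list mean itself fell, from 8.93, 8.63 and 8.78 in control to 7.64, 6.80 and 6.97 in cachectic mice. A gene that did not change, or that fell less than the list, is therefore higher against it. This holds for Pdgfra and Smoc2, whose own levels were lower in cachectic mice.

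Other markers of the interstitial progenitors fell in part. Of 14 tested genes, 5 were lower and 1 was higher, with a median of -0.37. Fn1, fibronectin, was at 484, 890 and 650 CPM in control and 200, 93.5 and 153 CPM in cachectic mice (log2 fold change -2.18, SE 0.33, edgeR adjusted p = 0.00621). Sema3c, a secreted semaphorin, fell by 1.18 (SE 0.20, adjusted p = 0.00867). The rest of those called lower had low counts. Stmn4 held 11 to 23 counts in control and 1 to 3 in cachectic mice, and Dact2 held 12 to 188 per mouse. Bmp7 was at 11.7, 1.60 and 3.23 CPM in control and 0.29, 0.49 and 1.18 CPM in cachectic mice. Igfbp6 (-0.12), Axl (-0.24), Anxa3 (0.18), Cd55 (-0.26) and Mfap5 (-0.57) were among those not called. The 1 gene of this list that was higher was Ly6c1, described above. When 1 mouse was left out, Fn1 and Sema3c were called each time, and between 2 and 4 of the 14 were called lower (2 without cachexia replicate 2).

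Markers of committed preadipocytes moved in both directions, with 3 of 12 higher, 2 lower and a median of -0.21. When 1 mouse was left out, 2 or 3 were called higher and 1 or 2 lower (1 without control replicate 3). Without cachexia replicate 1, Cebpa was among those called lower (-1.59, edgeR adjusted p = 0.0491, against -0.95 with all mice). Peg3, an imprinted zinc-finger gene of mesenchymal progenitors, was at 48.5, 84.8 and 58.8 CPM in control and 837, 692 and 1272 CPM in cachectic mice (log2 fold change 3.87, SE 0.33, edgeR adjusted p = 0.00114). Col15a1, a basement membrane collagen, fell by 2.56 (SE 0.30, adjusted p = 0.00276). Lpl (-0.81) and Fabp4 (0.36), the most abundant genes of the list and also genes of mature adipocytes, were not called, and Fabp4 was at -0.04 without cachexia replicate 3 and 0.69 without cachexia replicate 2. Of 8 markers of the CD142+ regulatory progenitors, 1 was higher and 2 were lower (median -0.38). F3, the gene for CD142, was not called with all mice (-0.76, SE 0.41, edgeR adjusted p = 0.233). It was called lower without cachexia replicate 1 (-1.47, adjusted p = 0.00933). Fmo2, a flavin monooxygenase, was higher (0.90, SE 0.19, adjusted p = 0.0198), and Gdf10, a TGF-beta family ligand, was lower (-2.36, SE 0.46, adjusted p = 0.0139), as was Rspo3, a Wnt agonist (-2.11, SE 0.45, adjusted p = 0.0188). Mgp, matrix Gla protein, was among the most abundant of the list and was at 238, 64.9 and 64.1 CPM in control and 181, 231 and 191 CPM in cachectic mice. It was not called with all mice (0.72, SE 0.49, adjusted p = 0.337), and control replicate 1 alone made the groups overlap. Without that mouse it was called higher (1.64, adjusted p = 0.00403). Without control replicate 3 the calls of Fmo2, Gdf10 and Rspo3 were lost, that of Fmo2 also without control replicate 2, and that of Rspo3 also without cachexia replicate 1 or 2.

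Of 10 tested genes of activated fibroblasts, 1 was higher and 1 was lower (median -0.03). Thbs1, thrombospondin 1, was at 39.5, 168 and 73.5 CPM in control and 1459, 292 and 1201 CPM in cachectic mice (log2 fold change 3.39, SE 0.71, edgeR adjusted p = 0.0184), and was not among the calls without control replicate 3. Adam12, a metalloprotease of mesenchymal cells, fell by 2.92 (SE 0.24, adjusted p = 0.00105). Postn, periostin, was not called (-0.08, SE 0.47, adjusted p = 0.927), and its sign turned with the mouse left out (0.32 without cachexia replicate 2 and -0.80 without cachexia replicate 3). Genes of dividing cells fell: 7 of 12 were lower, 11 of 12 had a negative log2 fold change, and the median was -1.99. Mki67 was at 20.4, 11.6 and 21.5 CPM in control and 2.45, 3.81 and 7.02 CPM in cachectic mice (-2.01, SE 0.41, adjusted p = 0.0162). Top2a (-1.42, adjusted p = 0.0371), Aurkb (-2.10, adjusted p = 0.0144) and Cenpf (-3.27, adjusted p = 0.00483) were lower as well. Cenpf was called without any 1 mouse, but Aurkb was not called without control replicate 3, Mki67 not without control replicate 3 or cachexia replicate 2, and Top2a only without control replicate 2. Without control replicate 3, 1 of the 12 was called lower, and without cachexia replicate 3, 8 were. The pad as a whole was measured, so the dividing cells were not assigned to a type.

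Markers of other cells that share transcripts with these 10 genes also moved. Of 13 endothelial markers, 7 were higher, all 13 had a positive log2 fold change, and the median was 0.75. Their summed level was 2162, 2137 and 2004 CPM in control and 3876, 4497 and 3148 CPM in cachectic mice. Pecam1, the most abundant, rose by 1.16 (SE 0.24, edgeR adjusted p = 0.0170), Cdh5 by 0.74 (SE 0.20, adjusted p = 0.0426), Flt1 by 1.21 (SE 0.19, adjusted p = 0.00724), and Esam by 1.55 (SE 0.22, adjusted p = 0.00492). Without control replicate 2 or control replicate 3, 2 of the 13 (Esam and Flt1) were called, and without cachexia replicate 3, 10 were. Esam and Flt1 were called without any 1 mouse, and Cdh5 only without cachexia replicate 3. Relative to the mean log2 level of these markers in the same mouse, Ly6a differed by 0.18 with overlapping groups (exact permutation test, p = 0.7). Pamr1 was higher by 1.38 and the other 8 markers, Cd34 (-0.88) and Cd248 (-3.39) among them, were lower, without overlap (exact p = 0.1 each). The list mean itself rose, from 7.09, 7.06 and 6.95 in control to 7.81, 8.10 and 7.55 in cachectic mice. A gene that did not change is on average lower against it. Taken alone, Cd34 (log2 fold change -0.03) and Dpp4 (-0.12) overlapped between groups. The log2 ratio of Ly6a to this list was -0.11, -0.28 and -0.36 in control and -0.10, -0.54 and 0.42 in cachectic mice. The sign of its difference thus depended on cachexia replicate 3. The part of endothelial transcripts in the higher level of Ly6a was not tested beyond this ratio.

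**Figure D3:**
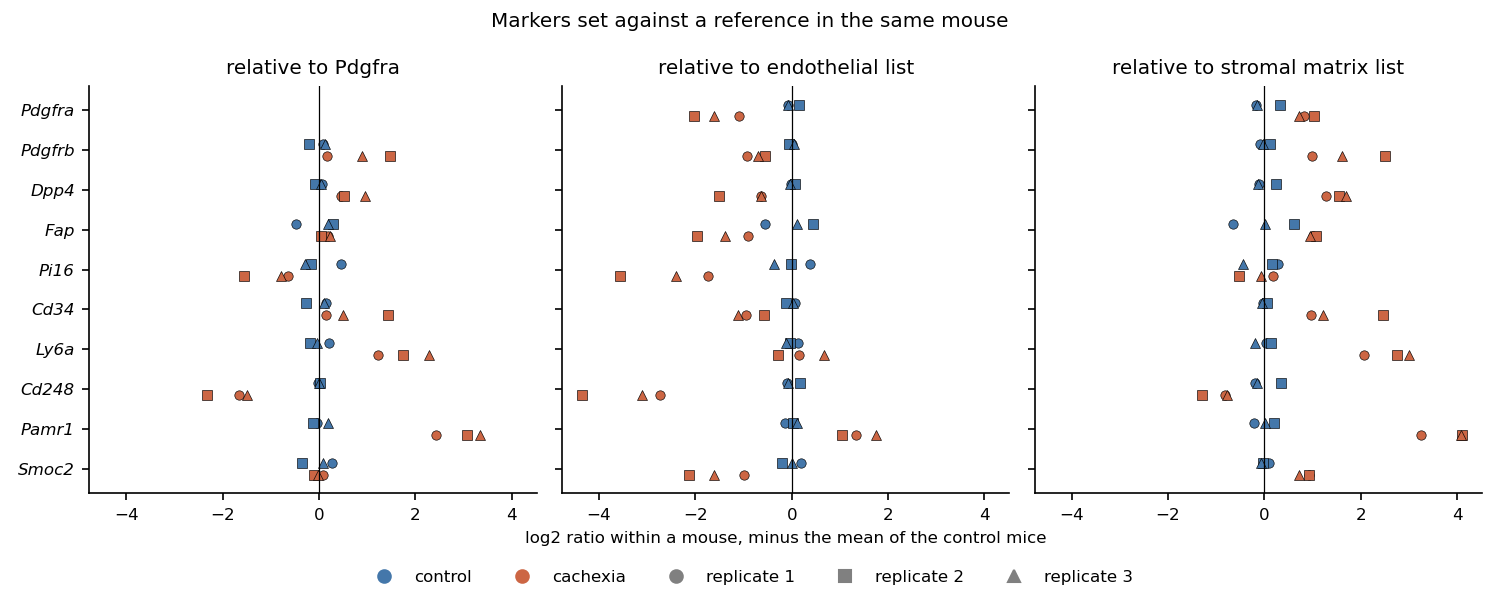
Log2 ratio of each marker to Pdgfra, to the mean of 13 endothelial markers and to the mean of 18 matrix genes in the same mouse, with the mean of the control mice set to 0 (x axis). Pamr1 is above its controls in all 3 panels, Cd248 is below them in all 3, and Ly6a overlaps its controls relative to the endothelial list alone.

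Pericyte and smooth muscle markers, which bear on Pdgfrb and Cd248, gave 1 higher and 1 lower of 12 (median -0.46). Rgs5, a pericyte regulator of G-protein signaling, fell from 533, 500 and 520 CPM to 324, 313 and 185 CPM (log2 fold change -0.92, SE 0.23, edgeR adjusted p = 0.0308), and was not called without control replicate 1, 2 or 3. Higd1b was higher (1.46, SE 0.22, adjusted p = 0.00632), and Mcam was not called (-0.51, SE 0.29, adjusted p = 0.257) except without cachexia replicate 1 (-0.91, adjusted p = 0.0378). Their summed level was 1819, 1731 and 1602 CPM in control and 1472, 1234 and 871 CPM in cachectic mice. Mesothelial markers gave 0 calls of 11 by edgeR (median -0.23), with 1 at an unadjusted p under 0.05 and 0 called by DESeq2 or limma-voom, and their sum was lowest in cachexia replicate 2 (224 CPM) against 429 to 497 CPM in the other cachectic mice. Upk3b (-0.50), Gpm6a (0.06), Wt1 (-0.33) and Krt19 (-0.92) were among them, and Krt19 was called lower without cachexia replicate 3 (-1.59, adjusted p = 0.0437). Krt18 was called higher without control replicate 1 (1.54, against -0.65 with all mice) and Msln without cachexia replicate 2 (0.97, against 0.62). Without cachexia replicate 2 and without cachexia replicate 3, Upk3b was at -0.19 and -0.79 and Gpm6a at 0.29 and -0.10. The part of either cell type in the marker levels was not tested.

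Adipocyte markers gave 3 higher and 1 lower of 12 (median 0.18), with Pck1 (log2 fold change 2.35, SE 0.46, edgeR adjusted p = 0.0143), Pnpla2 (1.08, SE 0.23, adjusted p = 0.0197) and Cidec (0.87, SE 0.22, adjusted p = 0.0322) higher. When 1 mouse was left out, Cidec was never called, Pck1 was not called without control replicate 3, and Pnpla2 was not called without control replicate 2 or 3 or cachexia replicate 1. Lep, the hormone leptin, was the gene called lower (-3.14, SE 0.89, adjusted p = 0.0475), at 999, 820 and 1242 CPM in control and 108, 9.83 and 231 CPM in cachectic mice, and it was not called without control replicate 1, 2 or 3 or cachexia replicate 1. Plin1 was not called with all mice (-1.44) but was called lower without cachexia replicate 1 (-2.03, edgeR adjusted p = 0.0189). Cfd, the most abundant of the adipocyte markers, was not called (0.37, SE 0.32, adjusted p = 0.456). Their sum was 26642 ± 3651 CPM in control and 34393 ± 7710 CPM in cachectic mice (exact permutation test, p = 0.2). Neutrophil markers were higher for 8 of 9 tested (median 4.94), summing to 48.9 ± 10.7 CPM in control and 405 ± 226 CPM in cachectic mice, with S100a9 the most abundant (log2 fold change 6.78), S100a8 (5.25) and Retnlg (4.95) among them, and Ly6g under the filter. Macrophage markers gave 1 higher (Cd163, 0.93) and 1 lower (Mrc1, -0.90) of 12, with Lyz2 (-0.17) and Csf1r (-0.34) not called, and lymphocyte markers 0 calls of 9 by edgeR (4 at an unadjusted p under 0.05, and 0 by DESeq2 or limma-voom) with a sum of at most 21.8 CPM in any mouse. Cd163 was called only without cachexia replicate 3, and Mrc1 only without control replicate 1 or cachexia replicate 1, when 1 mouse was left out. Without cachexia replicate 3, 2 macrophage markers were called higher, with C1qa added (0.52, edgeR adjusted p = 0.0498, against 0.37 with all mice). The lymphocyte genes Nkg7 (-1.22), Cd4 (-1.12), Cd3d (-1.45) and Ms4a1 (-1.16) had negative log2 fold changes, and that of Cd4 ran from -2.66 without cachexia replicate 2 to -0.60 without cachexia replicate 3. Without cachexia replicate 2, 1 lymphocyte marker, Ncr1, was called lower (-2.30, adjusted p = 0.0365). Cfd was at 0.10 without cachexia replicate 1 and 0.58 without cachexia replicate 3. Without cachexia replicate 2 and without cachexia replicate 3, Lyz2 was at -0.36 and -0.07 and Csf1r at -0.54 and -0.02. The part of these cell types in the levels of the 10 markers was not tested.

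**Figure D4:**
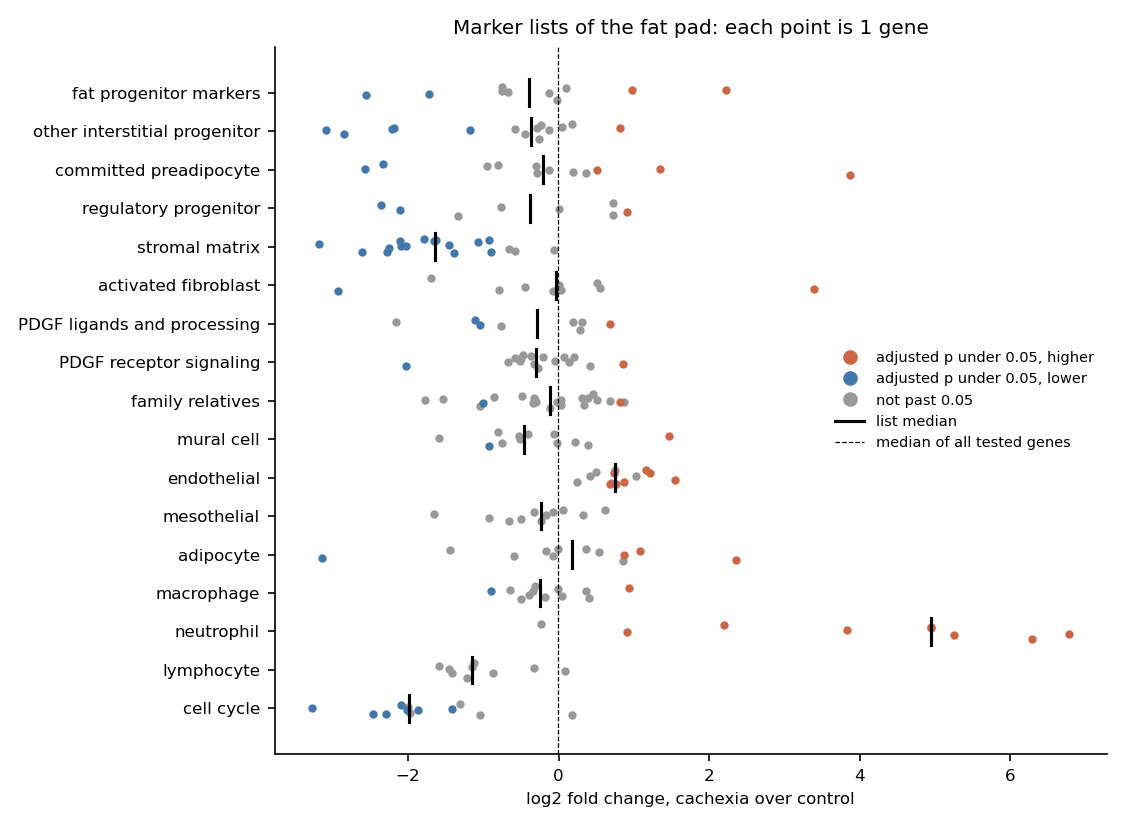
Log2 fold change, cachexia over control (x axis), of each tested gene in each list (rows), colored by the call, with a black bar for the list median and a dashed line for the median of all 16003 tested genes. The 10 progenitor markers spread from -2.56 to 2.23 around a median of -0.39, the 18 matrix genes lie below 0, and the 13 endothelial markers lie above it.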

How the data were processed

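RNA-seq of eWAT from 3 cachectic and 3 control mice was analyzed, grouped by the titles given to the samples. For the count table, the authors aligned reads with Hisat2, counted them per gene with featureCounts (version 1.5.0-p3 in the submitters' processing notes) and deposited raw counts. The authors also deposited FPKM values, computed from the count and the gene length, which were used for levels per length and as an alternative. Their table of differential expression (DESeq2 1.16.1) holds fold changes, p-values, values of 6 samples and means of 2 groups, and nothing from it was used here. The processing notes name the build mm9, but 98.3% of the gene coordinates in the table equal those of GENCODE M21 on GRCm38. Coordinates are printed as the table gives them, and those of Pi16 and Cd248 differ from GENCODE M21.

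The deposited counts were fitted by the quasi-likelihood method of edgeR 4.0.16 under R 4.3.3. Low counts were removed by filterByExpr, library sizes were scaled by TMM, no covariate was used, and p-values were adjusted by Benjamini-Hochberg over 16003 genes, with calls under 0.05. The standard error is the log2 fold change divided by the square root of F. Total counts of 14928766 to 18855546 per library, with a biological coefficient of variation of 0.264, set the precision. Single values were compared by two-sided exact permutation tests on log2 CPM (pseudocount 0.5). Each sample was taken as 1 mouse. The sources used here do not say so outright, and p-values measure only the spread between these samples, which may be technical. None of 15 pairs of libraries had near-identical counts (smallest chi-square per degree of freedom 12.8). The fit was tested on a set of simulated counts, where a larger share of the calls was false with DESeq2, and with the replicate block, than with edgeR. With limma-voom the share was the same as with edgeR. Those counts were drawn with the dispersions that edgeR had estimated, with no replicate effect and with far fewer changed genes than were called here. They therefore cannot rank the methods on these data. The 10 markers and all gene lists were chosen with earlier results of these data known. All 10 markers are given, and from each other list the 2 most abundant genes and the 2 with the smallest p. Pdgfb, Lep and Ly6g were added after their values were seen, as were 3 ratios (Pi16 and Fap to Dpp4, and Cd248 to Pdgfrb). The same holds for Stmn4, Dact2, Bmp7, Igfbp6, Axl, Anxa3, Cd55 and Mfap5 of the interstitial progenitor list. Krt18, Msln, Ncr1, Gab1, Cebpa, C1qa, F3 and Plin1 are given because they were called with 1 mouse left out but not with all mice. Not every such gene is named. Ccn2 is listed in the table as Ctgf. Protein sequences were not used here. Alternatives were other size factors (RLE, plain totals), the filter left out or set at 10 counts in each library, DESeq2 1.42.0, limma 3.58.1 (voom, and log2 FPKM with a pseudocount of 1 or 0.1), each mouse left out, a replicate block, and protein-coding genes alone.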

Additional observations from a re-analysis of the deposited data

How the results depend on the processing

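Pamr1 and Cd248 passed the threshold in all 16 alternative settings, Ly6a in 15, Pi16 in 11, Pdgfra in 5 and Smoc2 in 3. The number of the 10 markers called lower was 2. It was 3 with no filter, with at least 10 counts in each library and with limma-voom, where Pdgfra was added, and 4 with DESeq2, where Pdgfra and Smoc2 were. Leaving out one mouse at a time gave 1 to 4 markers called lower and 1 to 2 called higher. Over all genes, leaving out one mouse gave 382 to 1197 called higher (1440 with all mice) and 446 to 1142 called lower (1381 with all mice), the fewest without control replicate 3, the cause of which was not tested. With a replicate block, 913 genes were called higher and 968 lower, 2 markers higher and 3 lower, Smoc2 being the one added (log2 fold change -0.79, adjusted p = 0.0356). Deviations of same-numbered mice were uncorrelated over all genes (-0.003, -0.011 and 0.008), so they gave no sign that the numbers pair the samples. A pairing that touches only part of the genes could not be seen in this way, and whether the samples are paired is not stated. Fap, not called with any mouse left out, ran from -0.98 to -0.39. The sign of 3 markers that were never called turned: Cd34 (0.021 with plain totals, and -0.36 to 0.20 when one mouse was left out), Pdgfrb (-0.17 to 0.23) and Dpp4 (-0.28 to 0.018), the cause of which was not tested. Plain totals moved the median of all genes by 0.05, the largest shift of any setting. A pseudocount of 5 in place of 0.5 reduced the ratios of Pamr1 to 2.50 (to Pdgfra), 0.99 (to the endothelial list) and 3.34 (to the matrix list), and those of Cd248 to -1.48 (to Pdgfra) and -0.63 (to the matrix list). The SE differed between markers, from 0.13 for Pamr1 to 0.40 for Pi16, and with the SE of 0.32 for Fap its own change of -0.66 could not be told from the spread between mice.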
